A study of Mus musculus with 9 samples.

Results

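Sox5, Sox6, Sox13 and Sox21 are 4 genes of the Sox family of transcription factors, and the binding of another member of that family, Sox2, was described here at their loci. The genes were selected on the number of listed Sox2 summits near them in these libraries. A summit of Sox2 binding was counted for a gene when it lay inside the gene's RefSeq span in the mouse genome build mm10 or within 50 kb of it. They are 4 of 21883 protein-coding genes. Because of this selection, the counts and levels below that the choice used are descriptions without a test.

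Sox proteins bind DNA through an HMG box and bend it. Sox5, Sox6 and Sox13 form the SoxD group, whose proteins pair through a coiled coil and carry no activation or repression domain of their own, so that they act with partners. Sox5 and Sox6 are best known for cartilage formation together with Sox9, and Sox6 also for silencing embryonic globin genes in red cell precursors. Sox21 belongs to the SoxB2 group, close relatives of the SoxB1 factor Sox2 that largely act as repressors. In the airway, where Sox2 maintains the proximal epithelium, Sox21 is known as a factor expressed with Sox2.

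Sox2 was immunoprecipitated from lung epithelial cells of C57BL/6 mice with an age label of 8 weeks. The cells carried ectopic Sox2 together with deletion of Nkx2-1, the transcription factor of lung identity, or carried ectopic Sox2 alone, or were wildtype. Each condition has 1 Sox2 ChIP library, so the comparisons between conditions are unreplicated and carry no p-values. How Sox2 was expressed and how Nkx2-1 was deleted, and in which epithelial cells, is not given in the sources used here. A peak list holds no expression values, so neither the cell label nor the genotypes could be checked against marker genes.

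There were 2589 summits in the list of the Nkx2-1 deleted cells with ectopic Sox2, 229 in that of ectopic Sox2 alone and 552 in that of wildtype. Mean ChIP coverage, recovered from the lists, was 1.45 fragments per position with Nkx2-1 deletion, 0.764 with ectopic Sox2 alone and 0.963 in wildtype. Fragment numbers were therefore divided by 1.90 when Nkx2-1 deletion was set against ectopic Sox2 alone, and by 1.51 when it was set against wildtype. Intervals below are 95% intervals, exact Poisson for fragments and exact binomial for shares and ratios. They cover counting error only.

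With Nkx2-1 deletion, 12 summits lay in the windows of the 4 genes, 9 of them within Sox6 and 3 within Sox5. With ectopic Sox2 alone there were 3, of which 2 lay within Sox6 and 1 within Sox5. Wildtype had 7, namely 3 within Sox6, 3 within Sox5 and 1 beside Sox21. Every summit of Sox5 and Sox6 lay inside the gene span, none in the 50 kb on either side. Sox13 had no listed summit within 50 kb in any library.

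A summit within 50 kb is uncommon for a gene, and long genes collect more of them. Of all protein-coding genes, 13.1% had one in the Nkx2-1 deleted list, 1.53% in the ectopic Sox2 list and 2.85% in the wildtype list. Among the 226 protein-coding genes with a span of at least 500 kb, which include Sox5 and Sox6, the shares were 41.2%, 4.87% and 14.6%. Since the rule used these summits, nothing is read from the share of the 4 genes that had one.

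Relative to the length of the lists, the 12 summits were 0.463% (0.240 to 0.808) of the Nkx2-1 deleted list, the 3 were 1.31% (0.271 to 3.78) of the ectopic Sox2 list and the 7 were 1.27% of the wildtype list, with an interval that began at 0.511. The count with Nkx2-1 deletion was 4.0 times that with ectopic Sox2 alone, while the whole list was 11.3 times as long. Against wildtype the count was 1.71 times as high and the list 4.69 times as long. The ectopic Sox2 count was 0.429 times the wildtype count, at 0.415 times the list length. The intervals of the 3 shares overlap, which is no test of a difference between them.

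Sox6, chromosome 7 from 115470872 to 116040776 on the minus strand, carried the most summits of any protein-coding gene with Nkx2-1 deletion. It had 9, and the next genes, Ahnak, Ctnna2, Gnaq, Slc25a21 and Sprr2a2, had 6 each. This held inside the span alone and within 10 kb and 100 kb, where Sox6 again had 9 and no other gene as many. Counting stronger summits, with a −log10 q of at least 5, Sox6 had 6 and 1 other gene had as many. With ectopic Sox2 alone no gene had more than the 2 summits of Sox6, a count that 7 genes reached. Counting only summits with a −log10 q of at least 5 there, Sox6 had 1 and 1 gene had more. At that setting 259 genes, Sox6 included, had at least 1. In wildtype, Sox5 and Sox6 were among 7 genes with at least 3 summits, and 1 gene, Abcc4, had more.

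Per length, the Sox6 window held 13.4 summits per Mb (6.14 to 25.5) with Nkx2-1 deletion, where the windows of all protein-coding genes held 1.14 per Mb and those of the 226 long genes 0.749. With ectopic Sox2 alone it held 2.99 per Mb (0.362 to 10.8), beside 0.106 over all genes and 0.0558 over the long genes. In wildtype it held 4.48 per Mb (0.924 to 13.1), beside 0.209 and 0.219. Of the 226 long genes, none was denser than Sox6 in any of the 3 libraries. Shorter genes were, such as Ahnak with 32.0 summits per Mb with Nkx2-1 deletion. Sox5, with a longer span of 953.9 kb, was less dense, at 2.85 per Mb (0.587 to 8.32) with Nkx2-1 deletion, 0.949 (0.0240 to 5.29) with ectopic Sox2 alone and 2.85 (0.587 to 8.32) in wildtype. Of the 226 long genes, 14, 7 and 6 were denser than Sox5 in the same order of libraries.

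**Figure D1:**
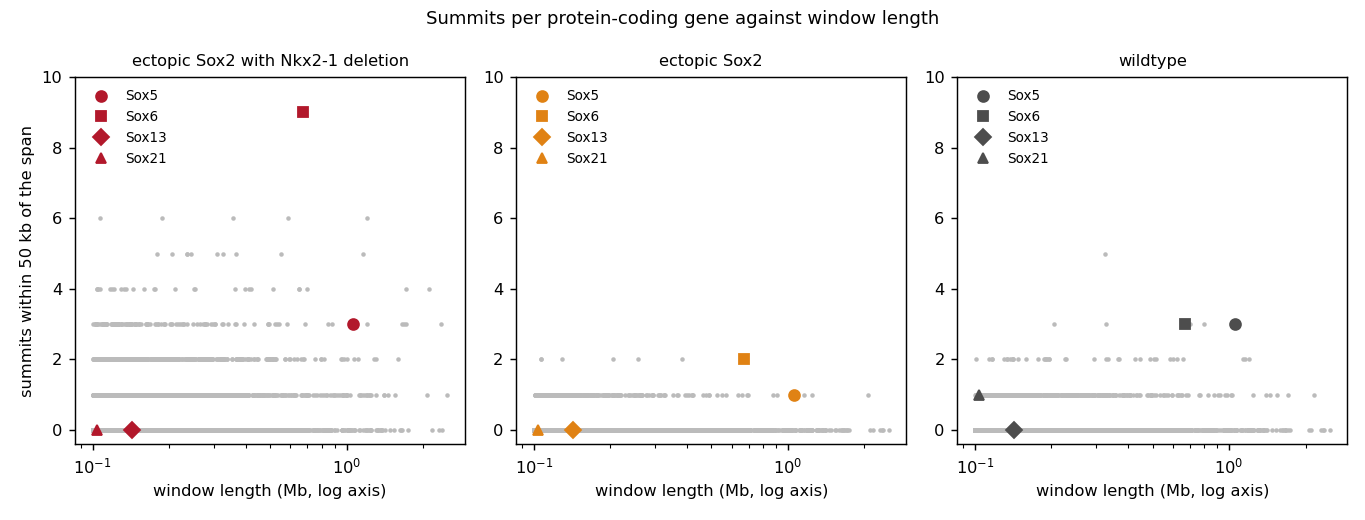
Number of listed summits within 50 kb of the span (vertical axis) against the length of the window, span plus 50 kb on each side (horizontal axis, Mb, log scale), for every protein-coding gene (grey) in each library, with the 4 Sox genes in colour. Sox6 stands highest with Nkx2-1 deletion, at 9 summits, while Sox13 lies at 0 in every library.

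The summits of Sox6 fell at 9 sites, all of which were listed with Nkx2-1 deletion. They ran from 40.1 kb to 539.0 kb downstream of the 5′ end of the span, so that they covered most of its 569.9 kb. Of the 9 sites, 1 was found in all 3 lists, 2 with Nkx2-1 deletion and in wildtype, and 1 with Nkx2-1 deletion and with ectopic Sox2 alone. The other 5 were listed with Nkx2-1 deletion alone.

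With Nkx2-1 deletion, the Sox6 sites with the most fragments were a pair near the middle of the gene, at chr7:115732859-115733261 and chr7:115734236-115734549. The first had 111 fragments (91.3 to 134) with Nkx2-1 deletion, no listed region with ectopic Sox2 alone, and 25 fragments (16.2 to 36.9) in wildtype. The second had 95 fragments (76.9 to 116) with Nkx2-1 deletion, again no listed region with ectopic Sox2 alone, and 28 (18.6 to 40.5) in wildtype. The 2 summits lay 1345 bp apart with Nkx2-1 deletion and 1335 bp apart in wildtype, and each summit was 5 bp from its counterpart in the other library. The same pair of positions was therefore listed in both libraries, with more fragments, not yet scaled by depth, with Nkx2-1 deletion.

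Divided by the depth ratio of the libraries, fragments at the first of the pair were 2.95 times (1.90 to 4.75) as many with Nkx2-1 deletion as in wildtype, and at the second 2.25 times (1.46 to 3.56). Over all 270 summits matched between these 2 lists the median was 1.37, with quartiles of 1.09 and 1.69. Of the 270, 2 summits had a larger ratio than the first of the pair and 19 a larger one than the second. The pair was picked for its level with Nkx2-1 deletion, a choice that itself raises these ratios. The matched set holds only sites listed in both libraries, which leaves out sites that were not listed in one of the libraries. The control background, the local level of the control library in the authors' peak calling, differed between the lists at both sites. At the first it was 6.0 control fragments with Nkx2-1 deletion and 2.0 in wildtype, and at the second 6.0 with Nkx2-1 deletion and 3.0 in wildtype, each on its own library's scale. With the background subtracted, the ratios were 2.88 and 2.24. The folds, which set ChIP against this background within each list, were close in the 2 libraries. At the first site the fold was 6.86 with Nkx2-1 deletion and 6.51 in wildtype, and at the second 5.89 and 5.44. The part that the control background has in these ratios was not tested. With depth taken instead from the 62 regions found in all 3 lists, the ratio at the second was 1.83.

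The Sox6 site found in all 3 lists, at chr7:115580553-115580883, had 88 fragments (70.6 to 108) with Nkx2-1 deletion, 38 (26.9 to 52.2) with ectopic Sox2 alone and 38 (26.9 to 52.2) in wildtype. Scaled by depth, the ratio was 1.22 (0.824 to 1.83) with Nkx2-1 deletion over ectopic Sox2 alone, 1.54 (1.04 to 2.31) over wildtype, and 1.26 (0.783 to 2.03) for ectopic Sox2 alone over wildtype. The first and the last of these intervals include 1. Over all summits matched between 2 lists, the medians were 1.27, 1.37 and 0.954 in the same order. Larger ratios than at this site were found at 66 of 119, 99 of 270 and 17 of 101 matched summits. With depth from the 62 regions found in all 3 lists, the ratios over ectopic Sox2 alone and over wildtype were 0.913 and 1.25. The fold enrichments there were low within each list, 4.25, 4.21 and 4.86 in the same order of libraries, on control backgrounds of 8.0, 5.0 and 5.0. The summits of the 3 lists lay within 9 bp of each other.

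The site nearest to the 3′ end of Sox6, at chr7:115501646-115501886, had 62 fragments (47.5 to 79.5) with Nkx2-1 deletion and 30 (20.2 to 42.8) with ectopic Sox2 alone, and was not listed in wildtype. Its depth-scaled ratio was 1.09 (0.692 to 1.74), an interval that includes 1, and the median over the 119 summits matched between these 2 lists was 1.27. With depth from the 62 shared regions it was 0.815. The RefSeq table also places the lncRNA gene Gm51455 over this summit. No other Sox6 summit had another gene over it.

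The 5 Sox6 sites listed with Nkx2-1 deletion alone had 50, 31, 29, 24 and 23 fragments there. The site of 50 fragments, at chr7:116000498-116000715, had the lowest fold of the 9, 3.17, on a control background of 6.0. It was the Sox6 site nearest to the 5′ end and to a RefSeq start of the gene, 5.55 kb upstream of an internal start at 115995086. Those of 24 and 23 fragments lay 3.43 kb apart, at chr7:115867706-115867922 and chr7:115864329-115864675, on backgrounds of 1.0. Of the 9 Sox6 summits, 4 had a control background of 6.0 or more, a level that 7.54% of all summits of that list had. The part that this background has in the count was not tested.

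Sox5, chromosome 6 from 143828425 to 144782287 on the minus strand, had 5 sites over the 3 lists, and none of them was in all 3. The 5 lay between 626.9 kb and 762.0 kb downstream of the 5′ end of the span, within 135 kb of each other, and no site was listed elsewhere in the gene. The single Sox5 start in the promoter table, an internal one at 143947106, lies further downstream, 73.2 kb or more from every summit. Of the 5 sites, 2 were listed with Nkx2-1 deletion alone and 1 in wildtype alone. A further 1 was shared by Nkx2-1 deletion and wildtype, and 1 by ectopic Sox2 alone and wildtype.

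The leading Sox5 site, at chr6:144021724-144022028, had the largest fold of the Nkx2-1 deleted list, 19.97, and its second largest −log10 q, 39.1. It had 92 fragments (74.2 to 113) with Nkx2-1 deletion, was not listed with ectopic Sox2 alone, and had 21 fragments (13.0 to 32.1) in wildtype. In wildtype the same site was an ordinary one, with a fold of 5.52 that ranked 307 of 552 and a −log10 q of 4.70. The depth-scaled ratio with Nkx2-1 deletion over wildtype was 2.91 (1.79 to 4.92), and 3 of the 270 summits matched between these lists had a larger one. The summits lay 35 bp apart. The control background was lower with Nkx2-1 deletion, at 1.0, than in wildtype, at 2.0, and with the background subtracted the ratio was 3.25. With depth from the 62 shared regions it was 2.37. The site was picked for its level in the Nkx2-1 deleted list, and such a choice raises the ratio.

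A weaker summit stood 1595 bp from the leading one with Nkx2-1 deletion, at chr6:144020194-144020399, with 35 fragments (24.4 to 48.7). The third with Nkx2-1 deletion, at chr6:144155175-144155508, had 43 fragments (31.1 to 57.9). Neither had a counterpart in another list.

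The other 2 Sox5 sites were not listed with Nkx2-1 deletion. At chr6:144104365-144104564, ectopic Sox2 alone had 14 fragments (7.65 to 23.5) and wildtype 26 (17.0 to 38.1), with summits 14 bp apart. The depth-scaled ratio of ectopic Sox2 alone over wildtype was 0.679 (0.328 to 1.35), an interval that includes 1. With ectopic Sox2 alone this summit had a −log10 q of 1.67 and ranked 226 of 229 in its list. At chr6:144043051-144043292 wildtype alone had a listed summit, of 22 fragments (13.8 to 33.3) with a fold of 8.65. The 3 wildtype summits of Sox5 had overlapping intervals of fragments. By fold, this last summit was the highest of them and ranked 44 of 552 in wildtype, beside folds of 6.75 and 5.52. With Nkx2-1 deletion, the interval of the leading site stood clear of those of the other 2 there, but that site was picked for its level.

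**Figure D2:**
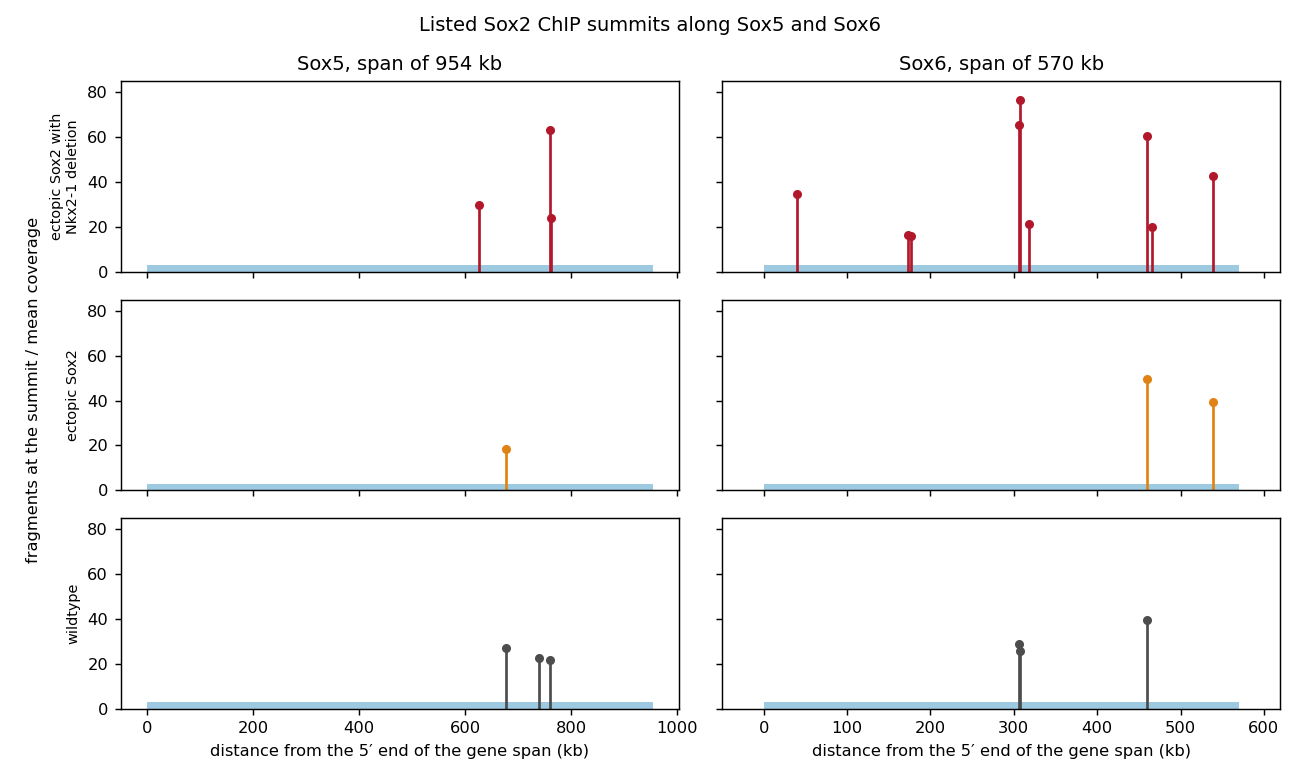
Listed summits along Sox5 (left) and Sox6 (right) in each library, by distance from the 5′ end of the span (horizontal axis, kb) and by fragments at the summit divided by the library's mean coverage (vertical axis); the blue bar is the gene span. Sox5 summits are confined to 135 kb of the gene in the 3 lists, while the 9 Sox6 summits of the Nkx2-1 deleted list run from 40.1 kb to 539.0 kb.

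Sox21, chromosome 14 from 118233233 to 118237030 on the minus strand, is a short gene of 3.80 kb. It had no listed summit within 50 kb with Nkx2-1 deletion or with ectopic Sox2 alone, and 1 in wildtype, at chr14:118230200-118230798. Its summit lies 2.82 kb beyond the 3′ end of the gene and 6.62 kb downstream of the start. It had 33 fragments (22.7 to 46.3) on a control background of 3.0, a fold of 6.36 and a −log10 q of 9.20, which ranked 113 of 552. The same summit lies within 50 kb of the gene Gm9376. Beyond the window, the nearest summit with Nkx2-1 deletion was 179.3 kb from Sox21 and the nearest with ectopic Sox2 alone 329.4 kb, and at both the nearest gene was Abcc4.

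Sox13, chromosome 1 from 133382300 to 133424459, the SoxD member known from autoimmunity and gamma delta T cells, is a gene of 42.2 kb. Its nearest summits were 270.1 kb away with Nkx2-1 deletion and 271.7 kb away with ectopic Sox2 alone, both nearer to Lax1. In wildtype none lay within 400 kb. Sox13 was thus like most genes in having no summit in its window. For Sox6, the nearest summits outside the window were 152.1 kb from the span with Nkx2-1 deletion, nearest to Plekha7, and 159.8 kb in wildtype.

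**Figure D3:**
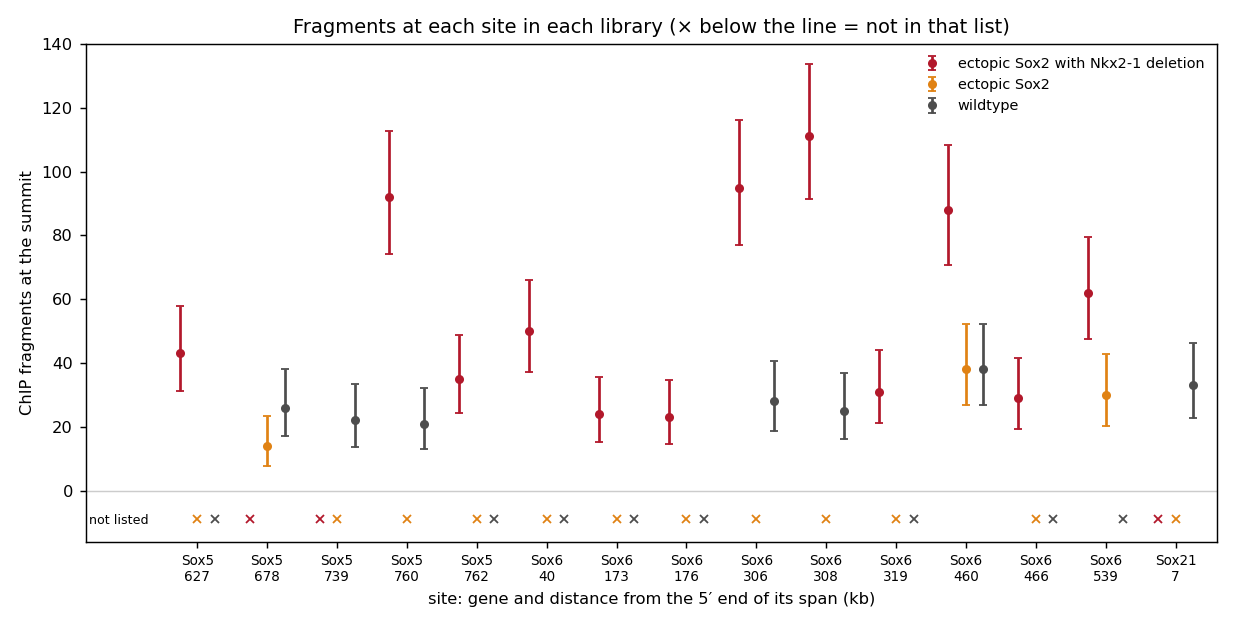
Fragments at the summit (vertical axis) at each of the 15 sites, labelled by gene and by distance from the 5′ end of the span in kb, in each library, with exact Poisson 95% intervals; a cross below the line means that the list holds no region there. The raw fragments are not scaled by depth, and the highest points are the 3 Sox6 sites and 1 Sox5 site with 88 to 111 fragments with Nkx2-1 deletion.

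Over the 4 genes, 15 sites were listed, 7 of them with Nkx2-1 deletion alone, 2 in wildtype alone and none with ectopic Sox2 alone. Of the 12 regions with Nkx2-1 deletion, 2 overlapped a region of the ectopic Sox2 list and 4 a wildtype region. In the whole Nkx2-1 deleted list these overlaps were 4.63% and 10.6% of 2551 regions. Most regions of that list were thus in no other list, so sites listed with Nkx2-1 deletion alone are not particular to these genes. Of the 3 ectopic Sox2 regions, 2 overlapped the Nkx2-1 deleted list and 2 wildtype, where the whole list had 51.8% and 43.9%. Of the 7 wildtype regions, 4 overlapped the Nkx2-1 deleted list and 2 the ectopic Sox2 list, beside 49.5% and 18.3% over the whole list.

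A region missing from a list can have lain below its calling threshold. Each comparison took a site, a list that held it and a list that lacked it. The fragments expected at an equal depth-scaled level were set beside the fewest that would have reached the lacking list's lowest −log10 p. This assumed an equal depth-scaled control background. A site held by several lists was compared once from each, so some missing regions count more than once. The expected number reached the threshold in 27 of 28 comparisons. With depth from the 62 regions found in all 3 lists, an alternative chosen after seeing the data, it did so in 23 of 28. The comparison was not run for sites of other genes, so whether these counts are usual for a listed site was not tested. A number just above the threshold was counted as reaching it, although counting error could leave such a site unlisted. For the leading Sox5 site, the level with Nkx2-1 deletion gave 48.4 fragments expected with ectopic Sox2 alone, where 11 were needed. For the Sox6 pair it gave 58.4 and 50.0 expected with ectopic Sox2 alone, where 27 were needed at each. From the wildtype level the margins were narrower, with 16.7 expected and 15 needed at the Sox5 site. At the Sox6 pair, 19.8 were then expected and 15 needed at the first, and 22.2 and 18 at the second. For the Sox21 site, 49.7 were expected with Nkx2-1 deletion and 26 needed, and 26.2 with ectopic Sox2 alone, where 18 were needed. For the weak Sox6 sites the margins were narrow too, such as 12.1 expected and 11 needed with ectopic Sox2 alone at the site of 23 fragments. The exception was the Sox6 site of 50 fragments, with 26.3 expected and 27 needed with ectopic Sox2 alone. With depth from the 62 shared regions, this site fell short in wildtype too, with 27.0 expected and 29 needed. With ectopic Sox2 alone the Sox6 sites of 23 and 24 fragments and the Sox5 site of 35 then also fell short, with 9.07, 9.46 and 13.8 expected and 11, 11 and 16 needed. Each site was taken from the list that held it, which favours a high expectation. The control background in the library without a region was not measured, and backgrounds at matched sites were not always equal.

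**Figure D4:**
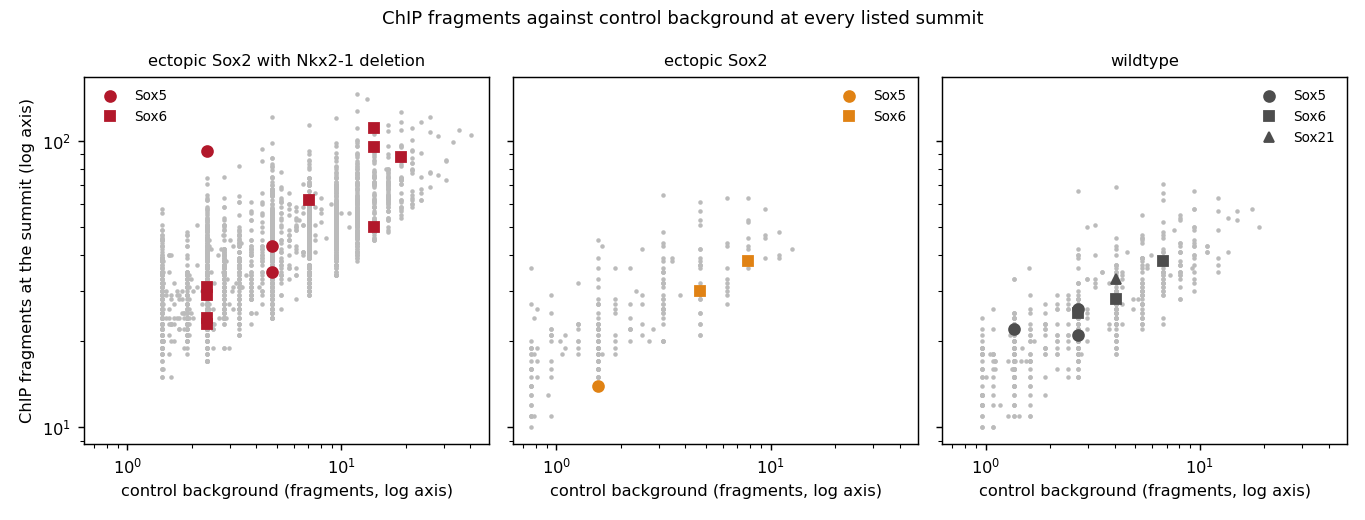
ChIP fragments at the summit (vertical axis) against the control background on the scale of ChIP fragments (horizontal axis), both on log scales, for every listed summit (grey) and the summits of Sox5, Sox6 and Sox21 (coloured). The leading Sox5 summit with Nkx2-1 deletion has 92 fragments on a low background, while 4 of the 9 Sox6 summits there lie at high background.

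None of the 15 sites fell on a promoter of the 4 genes in the RefSeq table of promoters (GRCm38.p6, the build of mm10), which held 6 starts for Sox6 and 1 for each of Sox5, Sox13 and Sox21. The 250 bases before 2 of these starts are shown because they were the nearest to a summit, the Sox6 start to a summit with Nkx2-1 deletion and the Sox21 start to the wildtype summit. Capitals mark matches, on either strand, to ACAAAG (a core motif of Sox proteins), to its variant AACAAT and to its variant ACAATG. The motifs AACAAT and ACAATG can overlap.
Sox6 promoter, chr7:115995087-115995336, minus strand: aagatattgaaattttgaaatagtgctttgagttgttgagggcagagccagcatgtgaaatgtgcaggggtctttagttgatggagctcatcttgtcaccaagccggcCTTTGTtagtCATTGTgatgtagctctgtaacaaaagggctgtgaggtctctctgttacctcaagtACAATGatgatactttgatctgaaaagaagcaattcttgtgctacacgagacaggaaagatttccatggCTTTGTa
Sox21 promoter, chr14:118237031-118237280, minus strand: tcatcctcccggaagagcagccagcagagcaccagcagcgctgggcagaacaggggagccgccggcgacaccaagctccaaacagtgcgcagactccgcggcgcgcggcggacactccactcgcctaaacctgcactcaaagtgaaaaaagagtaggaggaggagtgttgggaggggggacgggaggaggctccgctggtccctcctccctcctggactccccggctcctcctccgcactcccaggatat
The Sox6 sequence had 4 matches and the Sox21 sequence none. Of all 32851 promoters in the table, 29.6% held at least 1 of the 3 motifs, 16.5% ACAAAG, 9.42% AACAAT and 10.7% ACAATG. These matches describe the letters and not bound sites. The sequences under the summits themselves were not used here.

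Of the 16 other Sox genes, with a median span of 4.61 kb, 1 had a summit in its window in the Nkx2-1 deleted list, none in the ectopic Sox2 list and none in the wildtype list. Over all protein-coding genes the shares were 13.1%, 1.53% and 2.85% in the same order. These 16 genes are what was left of the family after the genes described above were chosen on their summits. Their counts therefore cannot show whether the family as a whole differs from other genes. The 1 gene with a summit was Sox15, a SoxG factor of muscle and placenta in the mouse. Its summit had 34 fragments (23.5 to 47.5) and lay 9.58 kb from its span on chromosome 11. Sox2 itself, Sox4, Sox9 and Sox11 had none. A further list held 14 genes, cartilage targets of Sox5, Sox6 and Sox9 or partners of these factors. Of the 14, 2 had a summit with Nkx2-1 deletion and none in the other lists, counts near the same shares over all genes. The genes with a summit were Matn4, a matrilin of the extracellular matrix, with 48 fragments (35.4 to 63.6) 16.8 kb from the gene, and Ctbp2, a corepressor known to bind Sox6, with 60 (45.8 to 77.2) inside the gene.

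By the number of summits in the 3 lists, the genes most like Sox5 were Lpp, with 4, 1 and 3 summits with Nkx2-1 deletion, with ectopic Sox2 alone and in wildtype, Mipol1, with 3, 0 and 3, and Abcb11, with 2, 1 and 3, beside 3, 1 and 3 for Sox5. Each differed from Sox5 by 1 summit in all, as did 1 further gene, with ties ordered by window length. No gene was close to Sox6, whose counts were 9, 2 and 3. The smallest difference, 6 summits summed over the 3 lists, was shared by 6 genes, of which Lpp, Slc25a21 and Zfp608 had the window lengths nearest to that of Sox6. Likeness here rests on 3 libraries and small counts.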

How the data were processed

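Sox2 ChIP was sequenced from 3 conditions, 1 library each, among 9 libraries. The input and IgG samples were not used here. The submitters' processing notes name Bowtie2 2.2.9, SAMtools 1.4, MACS2 2.1.1, HOMER 4.8.3 and the build mm10. The authors deposited 1 peak list per library, unpooled. The sources used here do not state the control, the threshold or the treatment of duplicate reads.

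The deposited columns hold a fold enrichment ratio, −log10 p, −log10 q and a score for every summit. They were computed by the authors, and serve here to describe, rank and filter summits of 1 list. Positions are printed counting from 1.

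MACS2 writes the fold with a pseudocount of 1 and p as a Poisson upper tail. Both were solved for the ChIP pileup, which gave whole fragments within 0.001 at a single value for 99.4% of summits in the Nkx2-1 deleted list, 99.6% in the ectopic Sox2 list and 99.8% in the wildtype list. The lowest control background divided by the step per fragment gave the mean coverage. The recovery was also run on values simulated with the same formulas and step, which cannot show that the deposited lists follow them. Ratios were divided by the ratio of mean coverages.

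Regions matched at an overlap of at least 1 bp. Gene spans and promoters came from RefSeq (GRCm38.p6). Analyses used Python 3.11.15, numpy 2.4.6, scipy 1.17.1 and pandas 2.3.3. With 1 library per condition no test across genes was run.

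Genes named are the 4 members, and genes with a summit among the listed Sox genes and the listed cartilage targets and partners. Others are genes sharing or nearest to a member summit and up to 5 genes with the most summits. Up to 3 genes most like a member by summit counts are named too. Sox family genes without a summit and genes tied at the top were named after their values were seen. The members and lists were chosen with earlier results of these data known, and the comparison of unlisted sites was added after the values were seen.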

Additional observations from a re-analysis of the deposited data

How the results depend on the processing

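No paired analysis was possible because each condition has 1 library, and no library could be left out of a group for the same reason. The counts of summits at the 4 genes stayed within 1.5 times of those given under 17 of 18 settings (other windows, −log10 q of at least 5, 1 summit per region, nearest gene). The exception was −log10 q of at least 5 with ectopic Sox2 alone, where 1 summit was left of 3. The densities per Mb of the 4 windows were 6.09 with Nkx2-1 deletion, 1.52 with ectopic Sox2 alone and 3.55 in wildtype. With −log10 q of at least 5 they fell to 4.06, 0.508 and 3.05 in the same order. Inside the span alone they rose to 7.64, 1.91 and 3.82, although no count rose. All of these values lay inside the counting intervals of the main ones. The counts of matched regions stayed within 1.5 times under their 6 settings. Of the other Sox genes, those near a summit with Nkx2-1 deletion numbered 0 inside spans alone, 0 with −log10 q of at least 5 and 2 within 100 kb, and in wildtype 1 within 100 kb. Without division by depth, the ratios with Nkx2-1 deletion over ectopic Sox2 alone were 2.07 and 2.32 at the Sox6 sites 115501765 and 115580709, and over wildtype 2.32 at 115580709. The other 21 of 24 ratio values stayed inside the intervals of the reported ratios. With depth from the 62 regions in all 3 lists, the ratios with Nkx2-1 deletion over ectopic Sox2 alone lay below 1, at 0.815 and 0.913. Counts of 14 to 111 fragments limit the precision of each ratio.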
